A study of Mus musculus with 8 samples.

Results

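The EGF receptor system of embryonic skin epithelium was described from 9 genes of 26165 measured. The genes were the EGF family ligands Areg, Ereg, Hbegf, Tgfa and Epgn, the receptors Egfr, Erbb2 and Erbb3, and the inhibitor Lrig1, each taken from the row that carries its symbol. Every one of these 9 symbols had 1 row, while the ligand gene Btc, the last of the 10 genes sought, had no row under its symbol and was not analysed here. Expression was measured on Affymetrix mouse exon arrays in dispase-separated back skin epithelium at E15.5. The embryos were 4 Foxi3 null animals (Foxi3-/-, a total null, recognised by the missing jaw and by genotyping), set against 4 wild-type animals (Foxi3+/+, by genotype). The embryos, of a C57/Bl6 background, were littermates out of 4 litters, none was treated, and each array holds the epithelium of 1 embryo. The sources do not tie an embryo to a litter, so the embryos were treated as independent.

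EGF family ligands are made as membrane-anchored precursors that metalloproteases of the Adam family cut free, and keratinocytes both make them and respond to them. Tgfa, amphiregulin (Areg) and epigen (Epgn) bind Egfr, while epiregulin (Ereg) and Hbegf can also engage Erbb4. Ligand binding pairs Egfr with itself or with Erbb2, which has no known ligand of its own, and Erbb3 binds neuregulins and depends on a partner because its own kinase activity is weak. In skin this system is known for keratinocyte growth and for hair shape, and mice without Tgfa have wavy hair. Lrig1 promotes the turnover of Erbb receptors and marks stem cells of the upper hair follicle.

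The promoters of 4 genes on which the results turn are shown first. Areg and Tgfa are ligand genes that were highest in the same pair of embryos, Epgn is a ligand gene near Areg that did not share this pattern, and Egfr was the 1 gene whose groups did not overlap. Each run is the 250 bases before the RefSeq start on the plus strand of GRCm38.p6, 5′ to 3′, at chr5:91139349-91139598 for Areg, chr6:86194972-86195221 for Tgfa, chr5:91027267-91027516 for Epgn and chr11:16751953-16752202 for Egfr. Capitals mark matches on either strand to a cAMP response element (TGACGTCA), a GC box (GGGCGG) or a TATA element (TATAAA).
Areg: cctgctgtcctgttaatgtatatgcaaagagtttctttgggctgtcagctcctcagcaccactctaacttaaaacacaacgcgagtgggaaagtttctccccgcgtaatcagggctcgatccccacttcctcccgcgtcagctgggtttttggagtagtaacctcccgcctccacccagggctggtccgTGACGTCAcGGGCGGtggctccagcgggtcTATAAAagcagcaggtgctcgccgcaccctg
Tgfa: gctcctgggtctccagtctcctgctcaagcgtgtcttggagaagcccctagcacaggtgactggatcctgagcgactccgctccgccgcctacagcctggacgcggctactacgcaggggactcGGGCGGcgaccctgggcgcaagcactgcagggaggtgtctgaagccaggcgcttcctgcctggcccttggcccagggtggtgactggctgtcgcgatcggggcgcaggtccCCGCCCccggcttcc
Epgn: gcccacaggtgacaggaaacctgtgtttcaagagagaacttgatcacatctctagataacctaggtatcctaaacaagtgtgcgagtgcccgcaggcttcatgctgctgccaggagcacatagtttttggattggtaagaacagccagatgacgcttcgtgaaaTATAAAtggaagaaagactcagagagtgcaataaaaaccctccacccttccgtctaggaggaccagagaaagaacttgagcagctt
Egfr: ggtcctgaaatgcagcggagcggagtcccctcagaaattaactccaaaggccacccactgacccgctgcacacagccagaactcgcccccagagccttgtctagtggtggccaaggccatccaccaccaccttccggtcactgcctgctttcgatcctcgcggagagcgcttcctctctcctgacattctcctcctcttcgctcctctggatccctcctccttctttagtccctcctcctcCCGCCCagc
Areg held the full cAMP response element from 61 to 54 bases before the start, which 1.55% of 32851 promoter windows of this length hold, a GC box from 52 to 47 bases before it, and a TATA element from 31 to 26. Tgfa held 2 GC boxes, from 126 to 121 and from 15 to 10 bases before the start, and Egfr held 1, from 9 to 4. A GC box occurs in 32.7% of the windows. Epgn held a TATA element from 86 to 81 bases before the start, a motif of 12.4% of windows. The AP-1 motif (TGANTCA, in 6.75% of windows) and a forkhead motif (TGTTTAC, in 3.17%) had no match in any of these 4 windows, and no 2 matches overlapped. A match describes the letters of these windows. Promoters were found for 6 of the 9 genes.

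Embryos also differed in ways that touch the results. Values are log2 intensities after RMA, so a difference of 1 is a doubling of signal on the array's compressed scale, and the level of 1 gene is not set against that of another. The epithelium list, 10 genes of the labelled tissue that include Krt5, Krt14, Epcam and Cdh1, had a mean of 10.85 to 10.88 in Foxi3 null and 10.85 to 10.95 in wild-type samples. The dissociation stress list holds 18 genes, mostly immediate-early genes, with Hspa1a as its only heat shock gene. It averaged 8.57 in Foxi3 null 4 and 9.41 in wild type 4. The other null samples had 7.51 to 7.63 and the other wild-type samples 7.64 to 7.88. Of its genes 15 had the samples numbered 4 as their 2 highest, as 9.99% of all genes did. Hspa1a, Klf4 and Gadd45b were not among them. Hspa1a was at 9.16 in Foxi3 null 4 against 8.64 to 9.43 in the other null samples. In wild type 4 it was at 9.50, its highest value, against 9.26 to 9.40 in the other wild-type samples. The dermal fibroblast list of 16 genes averaged 8.48 in Foxi3 null 2, which was the highest sample for 14 of them, and 6.87 to 7.19 elsewhere. Foxi3 itself (ENSMUSG00000055874) had values of 8.62, 8.43, 8.45 and 8.19 in Foxi3 null samples 1 to 4, against 8.96, 9.07, 9.20 and 8.55 in wild type 1 to 4. Its difference of −0.52 (SE 0.15) missed the threshold set below (limma adjusted p = 1.00), and where its probes lie relative to the deletion is not stated in these sources, so the level does not check the genotype.

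Loss of Foxi3 was not accompanied by a difference in any of the 9 genes that passed the test over all genes. The ligand genes lay lower in the null group and the receptor genes level or slightly higher, with log2 fold changes (Foxi3 null minus wild type) from −0.92 for Tgfa to 0.21 for Egfr. Of the 9 genes 0 passed limma at an adjusted p under 0.05, a rule that called 3 of 26165 genes (0.0115%). At an unadjusted p under 0.05 the count was 1, Egfr, where limma called 973 genes (3.72%). The count among the 9 lay between 0 and 3 when 1 sample was left out, and that over all genes between 707 and 2194. In 1 of the 9, again Egfr, the groups did not overlap, as in 1.95% of all genes. In all, 4 genes lay above 0 and 5 below, with a median of −0.08, against −0.008 over all genes. All 9 had a limma adjusted p of 1.00, so the sections below give sizes and 95% intervals rather than calls. A p that misses the threshold does not show that the groups were alike.

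**Figure D1:**
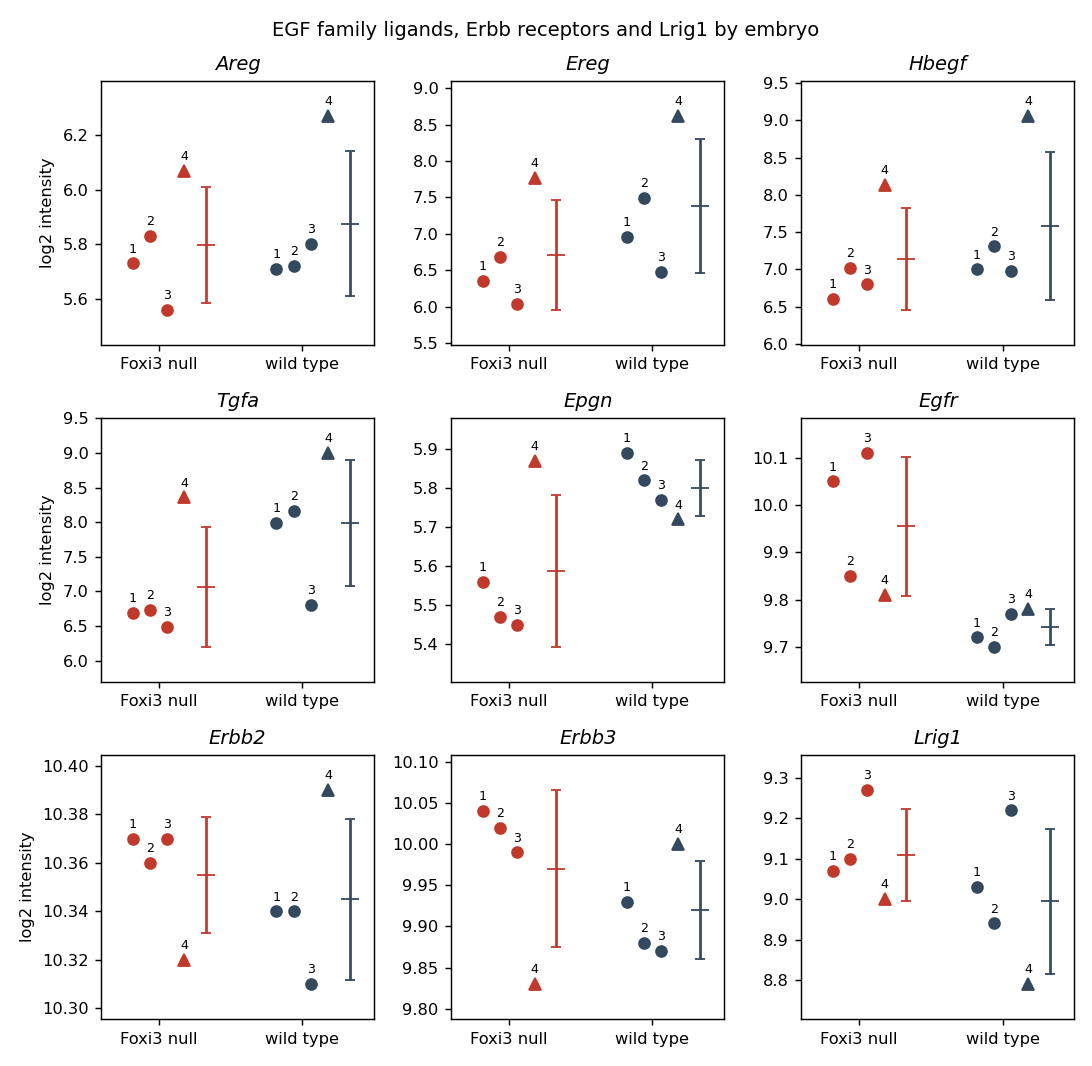
Log2 intensity of each gene (y axis, scaled separately in each panel) in the 4 Foxi3 null embryos (red, left) and the 4 wild-type embryos (dark, right), with sample numbers beside the points, triangles for the samples numbered 4, and the mean with SD (n = 4) to the right of each group. For Areg, Ereg, Hbegf and Tgfa the samples numbered 4 are the 2 highest of the 8, and for Egfr every null sample lies above every wild-type sample.

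Tgfa, which encodes transforming growth factor alpha, showed the largest difference of the 9 genes. It (ENSMUSG00000029999) had values of 6.69, 6.73, 6.49 and 8.36 in Foxi3 null samples 1 to 4, against 7.99, 8.16, 6.80 and 9.0 in wild type 1 to 4. Foxi3 null 1, 2 and 3 thus lay below every wild-type sample, and Foxi3 null 4 lay above 3 of the 4 wild-type samples. Null epithelium averaged 7.07 ± 0.87 and wild-type epithelium 7.99 ± 0.91 (SD, n = 4 each), a difference of −0.92 (SE 0.52, 95% interval −2.09 to 0.25) that corresponds to 1.89 times less signal. An exact permutation test, two-sided, gave p = 0.257. The difference was −0.583 without wild type 4 and −1.349 without Foxi3 null 4. The spread within groups was larger than for most genes, since its residual SD of 0.89 stood at the 99.7th percentile of all genes. Each null sample lay below the wild-type sample of the same number, and a fit blocked on sample number gave an SE of 0.20 (limma adjusted p = 0.272).

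Ereg encodes epiregulin, a ligand that keratinocytes make for their own growth. It (ENSMUSG00000029377) had values of 6.35, 6.68, 6.04 and 7.77 in Foxi3 null samples 1 to 4, against 6.96, 7.49, 6.48 and 8.62 in wild type 1 to 4. The samples numbered 4 were the highest of each group, and Foxi3 null 1 and 3 lay below every wild-type sample. The difference of −0.67 (SE 0.49, 95% interval −1.78 to 0.44) was smaller than the SD within either group, 0.75 in Foxi3 null and 0.92 in wild type (exact permutation p = 0.314). It was −0.261 without wild type 4 and −1.026 without Foxi3 null 4. At every sample number null lay below wild type, and with a block for sample number the SE was 0.09 (limma adjusted p = 0.146).

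Hbegf encodes heparin-binding EGF-like growth factor, which is induced rapidly in wounded epidermis. It (ENSMUSG00000024486) had values of 6.61, 7.02, 6.80 and 8.13 in Foxi3 null samples 1 to 4, against 7.0, 7.31, 6.98 and 9.06 in wild type 1 to 4. Again the samples numbered 4 stood highest, and among the others the groups met between 6.98 and 7.02. The difference was −0.45 (SE 0.50, 95% interval −1.57 to 0.68); the exact permutation p was 0.514. Without wild type 4 alone the difference was 0.045, and without both samples numbered 4 it was −0.28. Null was the lower at every sample number, and with a block for sample number the SE was 0.13 (limma adjusted p = 0.394).

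Areg encodes amphiregulin, a heparin-binding ligand of Egfr. It (ENSMUSG00000029378) had values of 5.73, 5.83, 5.56 and 6.07 in Foxi3 null samples 1 to 4, against 5.71, 5.72, 5.80 and 6.27 in wild type 1 to 4. The groups overlapped over nearly their whole range, and the samples numbered 4 were the 2 highest. The difference was −0.08 (SE 0.15, 95% interval −0.42 to 0.26); the exact permutation p was 0.686. Without wild type 4 it was 0.053, and without Foxi3 null 3 it was 0.001.

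Epgn encodes epigen, a ligand whose gene lies in 1 cluster with Ereg and Areg on chromosome 5 in the RefSeq annotation. It (ENSMUSG00000035020) had values of 5.56, 5.47, 5.45 and 5.87 in Foxi3 null samples 1 to 4, against 5.89, 5.82, 5.77 and 5.72 in wild type 1 to 4. Apart from Foxi3 null 4 every null sample lay below every wild-type sample. Unlike its neighbours it was lowest, not highest, in wild type 4 among the wild-type samples. The difference was −0.21 (SE 0.10, 95% interval −0.44 to 0.01); the exact permutation p was 0.114. Without both samples numbered 4 it was −0.33 (SE 0.07, limma adjusted p = 0.68).

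Among the receptor genes Egfr alone separated the groups. It (ENSMUSG00000020122) had values of 10.05, 9.85, 10.11 and 9.81 in Foxi3 null samples 1 to 4, against 9.72, 9.70, 9.77 and 9.78 in wild type 1 to 4. Every null sample exceeded every wild-type sample, with 0.03 between Foxi3 null 4 and wild type 4, the nearest pair. The difference was 0.21 (SE 0.08, 95% interval 0.02 to 0.40), or 1.16 times more signal, with a limma adjusted p of 1.00 over all genes. The exact permutation p of 0.0286 is the smallest that 70 arrangements allow. Groups separated in this direction in 0.871% of all genes. The unadjusted limma p of Egfr was 0.0856 without Foxi3 null 1, 0.0869 without Foxi3 null 3, 0.0639 without wild type 1 and 0.0706 without wild type 2, so its count at 0.05 was lost without any of these.

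Erbb2 and Erbb3 encode the partner receptors of Egfr, and both had small differences. Erbb2 (ENSMUSG00000062312) had values of 10.37, 10.36, 10.37 and 10.32 in Foxi3 null samples 1 to 4, against 10.34, 10.34, 10.31 and 10.39 in wild type 1 to 4. All 8 values lay within 0.07, the residual SD of 0.03 stood at the 0.2nd percentile of all genes, and the difference was 0.01 (SE 0.05, 95% interval −0.11 to 0.13). Erbb3 (ENSMUSG00000018166) had values of 10.04, 10.02, 9.99 and 9.83 in Foxi3 null samples 1 to 4, against 9.93, 9.88, 9.87 and 9.998 in wild type 1 to 4. The samples numbered 4 stood at opposite ends, lowest in Foxi3 null and highest in wild type, and the difference was 0.05 (SE 0.07, 95% interval −0.11 to 0.21). Erbb3 is also a gene of Schwann cells and melanoblasts. The Schwann cell and nerve list of 9 genes averaged 4.95 to 5.56 in Foxi3 null and 4.94 to 5.02 in wild-type samples, its high value being that of Foxi3 null 2. The melanoblast list of 10 genes averaged 6.36 to 6.66 in Foxi3 null and 6.38 to 6.72 in wild-type samples. The part of either cell type in the Erbb3 level was not tested.

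Lrig1, the receptor inhibitor, varied more between embryos than between genotypes. It (ENSMUSG00000030029) had values of 9.07, 9.10, 9.27 and 9.0 in Foxi3 null samples 1 to 4, against 9.03, 8.94, 9.22 and 8.79 in wild type 1 to 4. In both groups number 3 was the highest and number 4 the lowest. The difference was 0.11 (SE 0.10, 95% interval −0.12 to 0.34); the exact permutation p was 0.314.

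**Figure D2:**
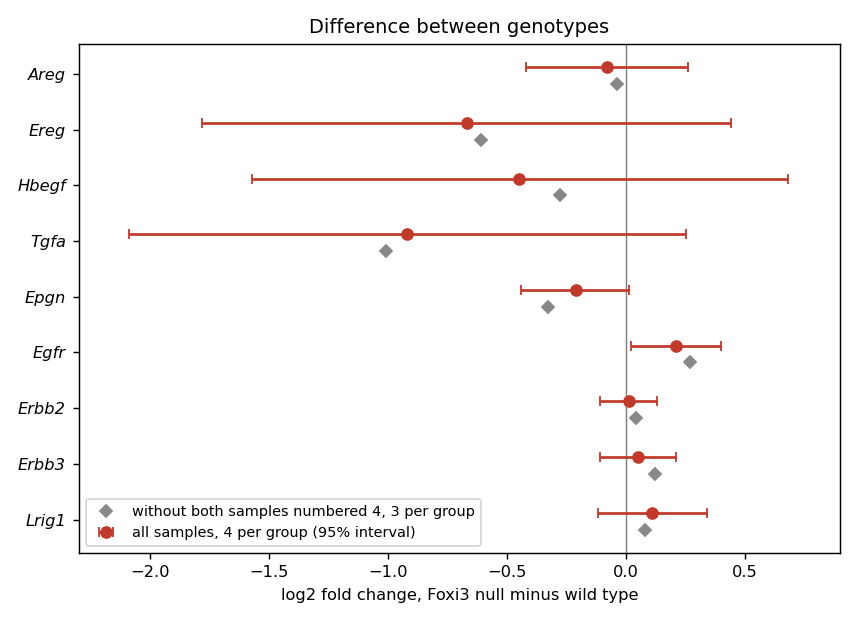
Log2 fold change, Foxi3 null minus wild type, of each gene (x axis), with red points and bars for all samples (95% interval of the limma fit, 4 embryos per group) and grey diamonds for the fit without both samples numbered 4 (3 per group). The interval of Egfr alone lies above 0, from 0.02 to 0.40, and those of Ereg, Hbegf and Tgfa are the widest.

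The samples numbered 4, which carried the high stress signal, held the highest levels of 4 ligand genes in both genotypes. Foxi3 null 4 stood above the mean of the other null samples by 1.72 for Tgfa, 1.41 for Ereg, 1.32 for Hbegf and 0.36 for Areg. Wild type 4 stood above the mean of the other wild-type samples by 1.35 for Tgfa, 1.65 for Ereg, 1.96 for Hbegf and 0.52 for Areg. For these 4 genes the gap between embryos of 1 genotype exceeded the difference between genotypes. Epgn was also raised in Foxi3 null 4, by 0.38, but not in wild type 4, where the gap was −0.10. The immediate-early gene Fos, itself in the stress list, was also high, at 9.05 in Foxi3 null 4 and 9.75 in wild type 4. The other null samples had 7.0 to 7.50 and the other wild-type samples 7.18 to 7.78. The part of dissociation stress in the ligand levels was not tested.

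Leaving out both samples numbered 4 kept the sign of all 9 differences. The difference was then −1.01 (SE 0.34) for Tgfa, −0.61 (SE 0.27) for Ereg, −0.28 (SE 0.14) for Hbegf and −0.04 (SE 0.09) for Areg. For Egfr it was 0.27 (SE 0.09), for Erbb3 0.12 (SE 0.06), for Lrig1 0.08 (SE 0.10) and for Erbb2 0.04 (SE 0.06). No gene passed over all genes, the limma adjusted p lying between 0.68 and 0.93. Among these 6 embryos the groups did not overlap for 5 of the 9 genes, Tgfa and Epgn lower and Egfr, Erbb2 and Erbb3 higher in Foxi3 null, as for 11.9% of all genes (8.18% lower and 3.7% higher).

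Tgfa and Ereg were also high where the list means of genes of the outer epidermal layers were high. Their 4 highest samples were Foxi3 null 4 and wild type 1, 2 and 4, a set that was highest in 7.47% of all genes. In the same 4 samples the suprabasal list of 14 genes, among them Krt1, Krt10 and Ivl, had its 4 highest means. That mean was 9.99, 10.09, 9.65 and 10.20 in Foxi3 null samples 1 to 4, against 10.30, 10.28, 9.84 and 10.42 in wild type 1 to 4. The periderm list of 9 genes, which covers the outermost embryonic layer, had means of 9.39, 9.55, 9.33 and 9.73 in Foxi3 null samples 1 to 4, against 9.67, 9.69, 9.35 and 9.80 in wild type 1 to 4. These 4 samples were the highest for 7 of the 14 suprabasal and 3 of the 9 periderm genes, and no gene of either list passed over all genes. Some genes ran the other way. The periderm gene Cldn6 was lowest in these 4 samples, at 5.57 to 6.65 against 7.15 to 8.02 elsewhere, with a difference of 0.99 (SE 0.38). The suprabasal gene Tgm3 was also lowest in them. Wide-ranging genes weigh most in the means: Ivl spanned 3.31 and Krt6a 3.47, but Krt1 only 0.24 and Krt10 0.13. In whole epithelium fewer cells of a layer and less RNA per cell cannot be told apart, and the part of layer composition in the ligand levels was not tested.

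**Figure D3:**
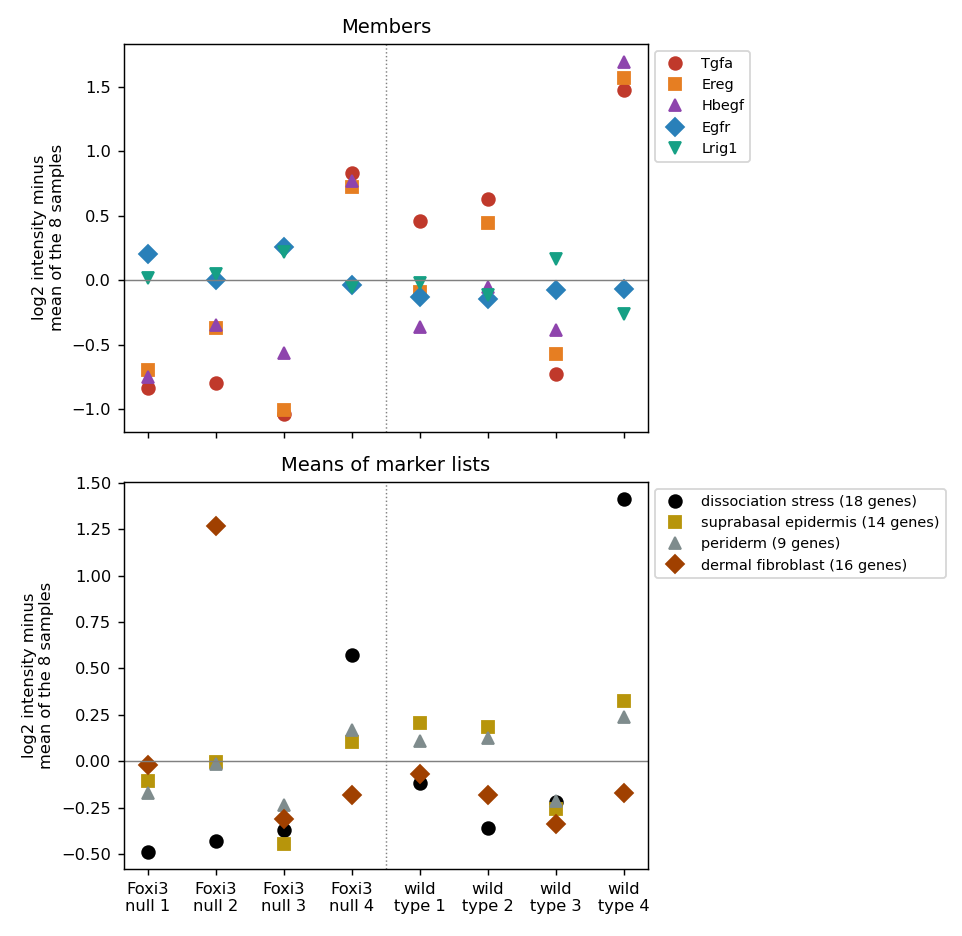
Log2 intensity minus the mean of the 8 samples (y axis) in the 4 Foxi3 null and then the 4 wild-type samples (x axis), for 5 of the genes (top) and for the means of 4 marker lists (bottom). Tgfa, Ereg and Hbegf are high in both samples numbered 4 with the stress list, and Tgfa and Ereg are also above their mean or near it in wild type 1 and 2 with the suprabasal and periderm lists.

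Across embryos the ligand genes tended to be high together, in samples where Lrig1 and Egfr tended to be low. Pearson's r over the 8 samples was above 0 for all 10 pairs of ligand genes, from 0.34 for Areg with Epgn to 0.95 for Ereg with Tgfa. It was below 0 for all 5 pairs of a ligand gene with Lrig1, from −0.92 for Ereg to −0.47 for Epgn, and for all 5 pairs with Egfr, from −0.80 for Epgn to −0.41 for Areg. Without both samples numbered 4, which are the 2 samples farthest from the median of Ereg and of Tgfa, r was 0.91 for Ereg with Tgfa and −0.87 for Ereg with Lrig1. The same step left r at 0.06 for Areg with Tgfa, 0.28 for Areg with Hbegf, 0.34 for Areg with Ereg and −0.30 for Areg with Lrig1, so that these relations of Areg rested on the samples numbered 4. It left r at −0.50 for Hbegf with Lrig1, which was −0.79 over the 8 samples. Erbb2 and Erbb3 were likewise related, with an r of 0.90 over the 8 samples and 0.91 without the samples numbered 4, although Erbb2 spanned only 0.07. These values describe 36 pairs over the same 8 samples. The samples are 4 Foxi3 null and 4 wild type, so the difference between genotypes enters each r. Some of them may also share litter or preparation. The share of all genes with an r of 0.85 or higher was 5.43% for Ereg, 5.23% for Tgfa and 3.03% for Hbegf, against 0.168% for Erbb2 and 0.122% for Erbb3. The share at −0.85 or lower ran from 0.371% for Epgn to 5.11% for Ereg.

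The genes whose levels were most like those of each gene were taken by Pearson's r over the 8 samples among all named genes. Each r below is thus among the highest of a very large set over only 8 samples, where high values can arise without any relation. Shared regulation was not tested. For Ereg these were Krt78, a type II keratin gene, with an r of 0.995, and Klrg2 (0.994). For Tgfa they were Tmem167b (0.994) and Hsd11b1 (0.993), which encodes a glucocorticoid-activating enzyme. Hbegf had Fis1 (0.988) and Itgb7 (0.987), Areg had Mrpl14 (0.979) and Olfr1127-ps1 (0.978), and Epgn had Ppp1r14c (0.987) and Lipc (0.968). For Egfr they were Sorl1 (0.989) and Tpr (0.978), for Erbb2 Parp4 (0.959), and for Erbb3 Rpl31-ps1 (0.928) and Defb5 (0.926). For Lrig1 they were Kif2c, a mitotic kinesin gene, at 0.995 and Ckap2 at 0.994. Without the 2 samples farthest from each gene's median, r was under 0.85 for both genes of Hbegf (0.811 and 0.814) and of Erbb3 (0.839 and 0.846), for Tpr (0.752) and for Olfr1127-ps1 (0.843).

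The wider pathway gave no call either. Of 70 measured genes in 5 lists, 0 passed over all genes in either direction, and 1, Fosl2, had an unadjusted p under 0.05 by limma. The remaining family members, the ligand genes Egf and Nrg1 to Nrg4 and the receptor gene Erbb4, had a median log2 fold change of 0.05. Erbb4, with the lowest unadjusted limma p among them (0.0979), had a log2 fold change of 0.11 (SE 0.06). Its signal was low, 3.59 to 3.80, as was that of Nrg3 (3.41 to 3.71) and Egf (4.30 to 4.54), where sample medians were 5.15 to 5.29. The 8 ligand shedding genes, among them the protease genes Adam10 and Adam17 and the iRhom genes, had a median of −0.02. In that list Rhbdf1, an iRhom gene, was at −0.09 (SE 0.07), and Adam17, the main sheddase of Tgfa, was at −0.01 (SE 0.07).

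The 15 receptor feedback genes had a median of −0.01, and the largest difference among them was that of the Erk phosphatase gene Dusp5, at −0.58 (SE 0.41), whose 2 highest samples were those numbered 4. Errfi1, which encodes a direct inhibitor of Egfr, was at −0.17 (SE 0.10), Dusp6, another Erk phosphatase gene, at 0.17 (SE 0.12) and Spry1 at −0.15 (SE 0.10). The 25 signal transduction genes, among them the adaptor gene Grb2, had a median of −0.02 and lay between −0.18 and 0.09, with Pik3cb at −0.10 (SE 0.06). The 16 growth factor response genes had a median of −0.16, and for 8 of them the samples numbered 4 were the 2 highest. Those 8 include Egr1, Fos, Jun, Junb and Ier3, which are also in the dissociation stress list, so the lists are not separate observations of this pattern. Among these 16, Fosl2, an AP-1 subunit gene, was at −0.26 (SE 0.10, limma adjusted p = 1.00), Egr3 at −0.44 (SE 0.23) and the chromatin gene Hmga2 at 0.33 (SE 0.16). In none of the 5 lists did a gene separate the groups.

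**Figure D4:**
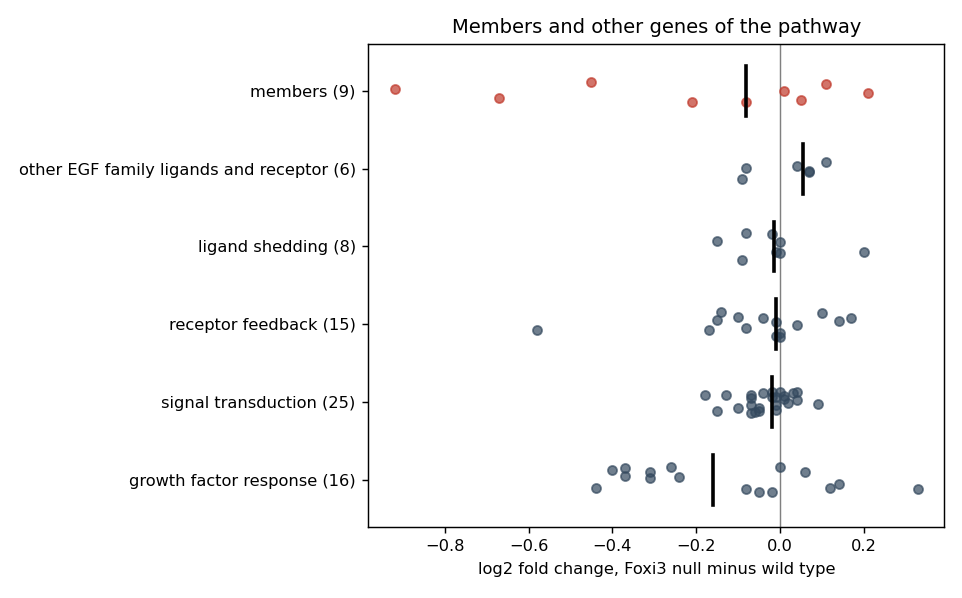
Log2 fold change, Foxi3 null minus wild type (x axis), of the 9 genes (red) and of each gene of the 5 pathway lists (dark), with the number of genes in parentheses and black bars at the medians. Points are spread vertically at random within a row. Apart from Tgfa, Ereg, Hbegf and genes of the feedback and response lists, nearly all values lie close to 0.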

How the data were processed

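Total RNA from the back skin epithelium of 8 embryos was measured on 1 array each. The deposited log2 intensities were made by the authors with RMA, a method that removes background, puts arrays on 1 scale and merges the probes of a gene, per the submitters' processing notes. The array type was read from the file headers, and the RMA version, probe annotation and genome build are not stated in these sources. Another 8 value columns, whose names match no sample, were left unused. The deposited group means matched means of the sample values within 7.5e-09. Sample medians lay between 5.15 and 5.29. Precision is limited by the number of arrays, which have no read depth.

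Groups and replicate numbers came from the sample titles. All 26165 genes were tested in limma 3.58.1 under R 4.3.3 (lmFit, eBayes), without a covariate, two-sided, with Benjamini-Hochberg adjustment and a threshold of 0.05. The steps were tested on simulated data. Lists are described by counts and medians. Of 6 genes named as ligands 5 had a row. Named genes were the members, Foxi3, up to 3 genes of each pathway list by unadjusted p, and the 2 genes most correlated with each member, of which 1 for Erbb2 is not reported here. Adam17, Dusp5, Fos and other genes used as examples were chosen after their values were seen. The members and lists were chosen with earlier results of these data known. Single-gene permutation tests were exact and two-sided. Alternatives were a replicate block, a threshold of 0.1, array weights, robust moderation with an intensity trend, leaving out samples, median centring, quantile normalisation, and testing only genes above the median intensity.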

Additional observations from a re-analysis of the deposited data

Results flagged for a closer look

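For each group of 4, the distance between an extreme sample and its neighbour was set against the group's whole range, and 5 of 86 values exceeded the 95% limit for such a share, about 4 being due by chance at 1 in 20. All 5 were high values in the samples numbered 4. Foxi3 null 4 stood apart for Tgfa (0.871) and for the mean of the dissociation stress list (0.891). Wild type 4 stood apart for Areg (0.840), for Hbegf (0.839) and for the stress mean (0.865).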

How the results depend on the processing

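None of the 9 genes passed under any of the 16 alternatives, nor did any of the 70 pathway genes (64 where only genes above the median intensity were tested), the lowest adjusted p of a member being 0.146 (Ereg with the replicate block). In 4 alternatives the fitted differences are the same by construction. In the other 12, of 108 differences 105 kept their sign and 3 changed it when 1 sample was left out: Areg ranged from −0.169 to 0.053 and Hbegf from −0.775 to 0.045. Over the same omissions Tgfa ranged from −1.349 to −0.583, Ereg from −1.026 to −0.261, Epgn from −0.306 to −0.166, Egfr from 0.156 to 0.259, Erbb2 from 0.002 to 0.025, Erbb3 from 0.028 to 0.097 and Lrig1 from 0.044 to 0.187. The count of genes called over all genes was 3, between 0 and 4 when 1 sample was left out, 0 without both samples numbered 4 and 0 with the replicate block; the cause was not tested. Same-numbered samples deviated from their group means with correlations of 0.13, −0.043, 0.49 and 0.358. Foxi3 null 1, 3 and 4 each correlated best with the wild-type sample of the same number, and Foxi3 null 2 with wild type 1 (0.162). No label ties a number to a litter, so whether the numbers pair littermates is not known, and the main fit left them unpaired. For Tgfa, Ereg and Hbegf the null sample lay below the wild-type sample at every number, and for Egfr and Lrig1 it lay above at every number. Areg, Epgn, Erbb2 and Erbb3 kept no such order. How many of all genes keep 1 order at every number was not counted. With the replicate block the SE was 0.09 for Ereg, 0.20 for Tgfa and 0.13 for Hbegf. Their unadjusted limma p was 0.000288, 0.00405 and 0.0153, and their adjusted p 0.146, 0.272 and 0.394. With the block 4 of the 9 genes had an unadjusted limma p under 0.05, as did 2339 of all 26165 genes. Without it these counts were 1 and 973. They were 3 and 1786 with array weights, and 3 and 1688 without both samples numbered 4, so the count over all genes rose as well. Of the 70 pathway genes 8 had an unadjusted limma p under 0.05 with the block, beside the 2339 of 26165 over all genes. The pathway count was 0 to 7 when 1 sample was left out. The 7 came without wild type 3, where 1898 of all 26165 genes had such a p. The low signal of Areg and Epgn, and the lower signal of Erbb4, Nrg3 and Egf, could not be set against background, since no detection calls were used.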
